A study of Homo sapiens with 6 samples.

Results

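Polycomb repressive complex 2 (PRC2) genes were examined in PaTu8988t cells, an established human cell line of pancreatic ductal adenocarcinoma (PDAC). The 10 genes were *EZH1*, *EZH2*, *EED*, *SUZ12*, *RBBP7*, *JARID2*, *AEBP2*, *PHF1*, *MTF2* and *PHF19*, and each was found by its symbol among the 20347 gene symbols of the expression table. All 10 reached the minimum for testing, a mean normalized count of at least 10, which 12773 genes reached. RNA-seq compared control cells, which received the CRISPR/Cas9 plasmid with an unspecific guide (3 libraries), with *SAMD1* KO cells, whose plasmid carried guides against *SAMD1* (3 libraries). Both groups were grown in the same medium, and the labels name no further treatment. The KO libraries came from 3 single-cell clones, numbered here by their replicate number, whereas nothing states that the control replicates were separate clones or cultures. The spread of the KO group therefore holds differences between clones, and that of the controls may be technical.

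PRC2 places methyl groups on lysine 27 of histone H3, a mark of silenced developmental genes. EZH2 or its relative EZH1 is the catalytic subunit, EED and SUZ12 are needed for activity, and RBBP7 or its close relative RBBP4 binds histones. Accessory subunits direct the complex to chromatin and define separate forms of it. One form holds a Polycomb-like protein (PHF1, MTF2 or PHF19), a family that binds unmethylated CpG-rich DNA, and the other holds JARID2 and AEBP2. SAMD1 itself binds unmethylated CpG islands and acts as a repressor, so the comparison asks whether its loss alters the expression of another machinery of silencing at such islands.

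For *SAMD1*, the control replicates had 2231, 2382 and 2299 normalized counts (gene counts divided by the size factor of their library) and KO clones 1 to 3 had 874.1, 1082 and 824.8. Its transcript was lower in every KO library, with reads remaining in each. Library totals ran from 35589477 to 45172216 recovered reads, and the PRC2 genes had between 842 and 18492 reads in a library. Of the markers of a PDAC epithelium, *KRT8* and *KRT18* were abundant (at least 29200 normalized counts in every library), *EPCAM* lay between 422 and 626, *CDH1* was low (24.0 to 45.8), and *KRT19* was listed at 0. *KRT18* was higher in every clone (29200 to 29771 in control cells, 33001 to 50795 in the clones) without passing the test (limma adjusted p = 0.0598). So was *MUC1* (186 to 192 in control cells, 214 to 240 in the clones, limma adjusted p = 0.186). Leukocyte markers summed to at most 14.7 normalized counts in any library, and all 3 acinar and both endocrine markers were listed at 0. Fibroblast markers summed to between 30.6 and 56.2 and endothelial markers to between 33.6 and 84.8. *KRT7*, another ductal keratin, was higher in the KO clones (log2 fold change 1.46, limma adjusted p = 0.00392), as was *PDGFRA* of the fibroblast list (3.44 to 4.58 normalized counts in control cells and 14.7 to 23.7 in the clones, adjusted p = 0.0139). *COL1A1* of that list lay lower in the clones (48.9 to 52.7 in control cells, 15.3 to 41.5 in the clones), without passing the test (limma adjusted p = 0.098). So did the endothelial *CDH5* (29.4 to 37.7 in control cells, 2.97 to 17.3 in the clones, adjusted p = 0.0748). *DCN* and *LUM* of the fibroblast list were listed at 0. The part of these markers in the results for PRC2 was not tested.

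Loss of SAMD1 was accompanied by changes of the PRC2 genes in opposite directions, none of them large. *RBBP7* rose to 134% of its control level, and *EED*, *AEBP2* and *PHF1* fell to between 83.2% and 84.3%. By limma, 1 member was higher and 3 were lower at an adjusted p below 0.05, against 8.32% of all tested genes higher and 4.70% lower. The remaining 6 did not pass. In such bulk RNA, a lower level in each cell and fewer cells with the transcript cannot be told apart. The median log2 fold change of the 10 genes was −0.22, with 9 of them below 0, beside −0.0059 for all tested genes, of which 51.2% were below 0. At the cut-off used in the study, a log2 fold change beyond 0.5 with an unadjusted p below 0.01, limma called 0 members, as did edgeR and DESeq2, whereas 5.77% of all tested genes were called higher and 2.08% lower. At an unadjusted p below 0.05, limma gave 1 higher and 5 lower members, against 16.1% of all tested genes higher and 13.5% lower. Control and KO libraries were fully separate for *RBBP7* (1 member, higher) and for 6 members that were lower. Of all tested genes, 19.2% were higher and 18.6% were lower without overlap.

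**Figure D1:**
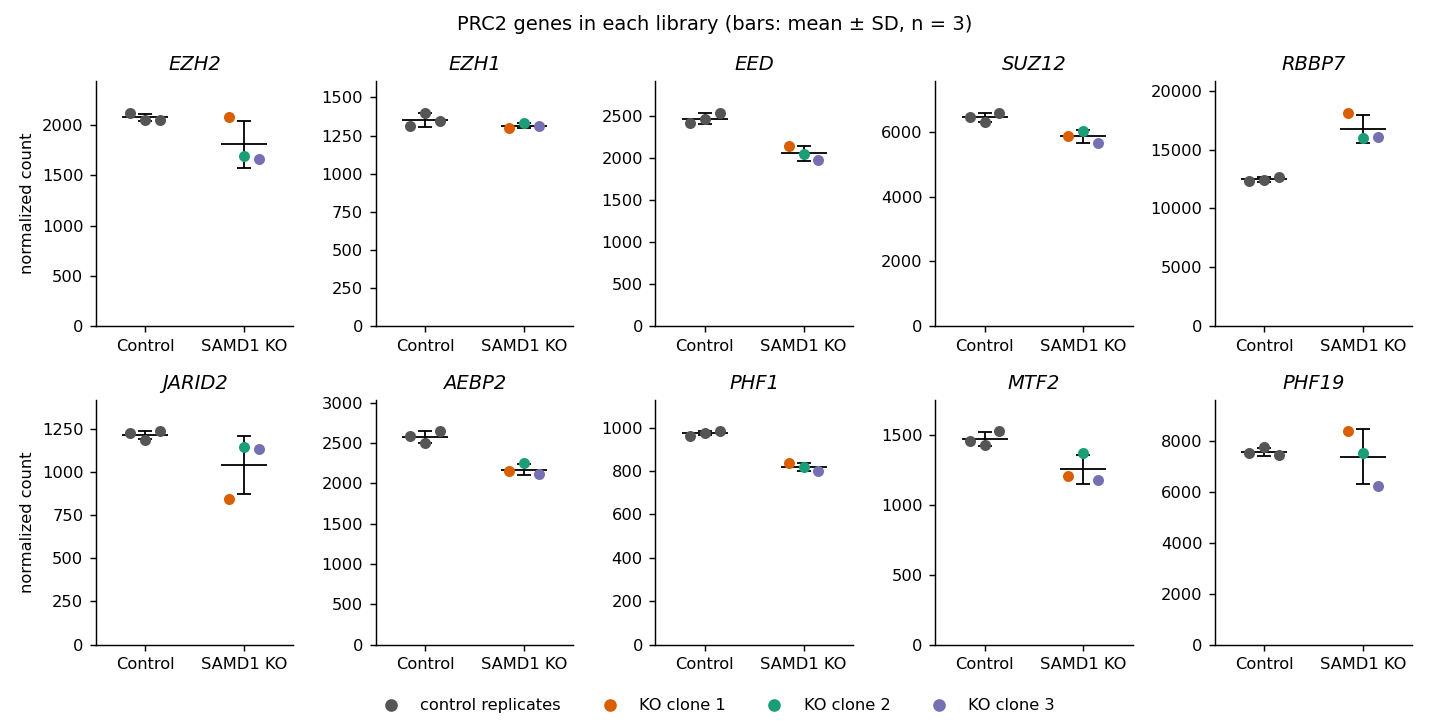
Normalized counts of the 10 PRC2 genes (vertical axes from 0) in the control replicates and in *SAMD1* KO clones 1 to 3. Points are libraries and bars give the mean ± SD (n = 3); the *RBBP7* points of the clones lie between 15976 and 18103, above all controls, and those of *EED*, *SUZ12*, *JARID2*, *AEBP2*, *PHF1* and *MTF2* lie below all controls.

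**Figure D2:**
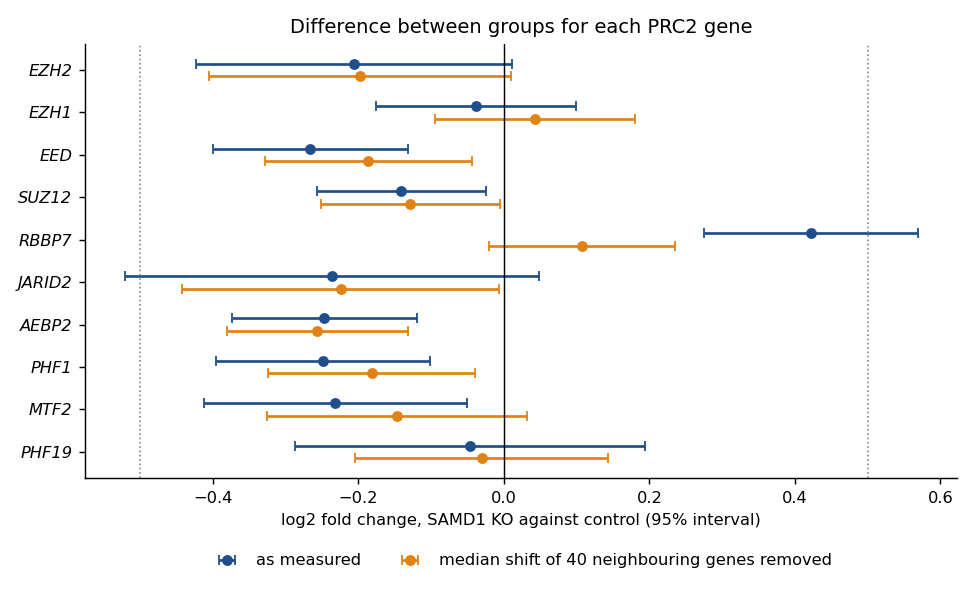
Log2 fold change of each PRC2 gene with its 95% interval from limma (horizontal axis), as measured and after the median shift of 40 neighbouring genes was taken off each library. Dotted lines mark 0.5 on either side of 0; *RBBP7* moves from 0.42 to 0.11, and *AEBP2* stays at −0.25 and −0.26.

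SAMD1 prefers DNA that holds GCGC, and the promoters of the 4 members that passed the test are shown to let this motif be seen in them. Each sequence is the 250 bases before the RefSeq start (GRCh38.p14), read 5′ to 3′ on the strand of the gene, with every GCGC in capitals, including where copies overlap. GCGC is its own reverse complement, so a single strand shows all copies. The windows were chrX:16870363-16870612 (minus strand) for *RBBP7*, chr11:86244503-86244752 (plus) for *EED*, chr12:19440349-19440598 (plus) for *AEBP2* and chr6:33410764-33411013 (plus) for *PHF1*.
RBBP7: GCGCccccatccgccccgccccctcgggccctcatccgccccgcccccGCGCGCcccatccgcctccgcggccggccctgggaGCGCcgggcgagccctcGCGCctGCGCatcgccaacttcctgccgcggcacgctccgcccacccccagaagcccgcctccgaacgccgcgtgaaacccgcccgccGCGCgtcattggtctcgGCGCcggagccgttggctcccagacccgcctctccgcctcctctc
EED: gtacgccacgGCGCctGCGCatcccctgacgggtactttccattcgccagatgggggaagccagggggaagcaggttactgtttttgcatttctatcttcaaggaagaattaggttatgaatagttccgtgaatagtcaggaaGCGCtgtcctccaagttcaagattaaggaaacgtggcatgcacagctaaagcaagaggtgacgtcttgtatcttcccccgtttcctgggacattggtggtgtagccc
AEBP2: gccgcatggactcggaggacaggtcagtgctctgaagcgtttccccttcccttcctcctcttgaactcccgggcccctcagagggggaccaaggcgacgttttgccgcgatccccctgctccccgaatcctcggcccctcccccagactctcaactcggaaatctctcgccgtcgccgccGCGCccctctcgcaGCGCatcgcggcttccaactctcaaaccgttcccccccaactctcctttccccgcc
PHF1: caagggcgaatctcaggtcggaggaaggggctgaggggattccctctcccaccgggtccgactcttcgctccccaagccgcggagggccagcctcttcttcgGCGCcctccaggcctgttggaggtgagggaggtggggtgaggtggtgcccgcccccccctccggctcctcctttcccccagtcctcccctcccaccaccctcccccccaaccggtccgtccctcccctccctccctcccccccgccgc
*RBBP7* held 8 copies, *EED* 3, *AEBP2* 2 and *PHF1* 1. The motif was in all 10 PRC2 promoters, where *EZH2* had 9 copies, *EZH1* 8, *SUZ12* 7, *MTF2* 5, *JARID2* 2 and *PHF19* 1. It was also in 80.9% of the 10260 promoters of tested genes that were found by symbol, with a median of 3 copies, and such a match is a description of the letters alone. Whether the number of copies bears on the change of a member was not tested. The GENCODE spans of *EED*, *AEBP2* and *PHF1* given with their values begin before these RefSeq starts, so that their windows lie inside those spans. Binding of SAMD1 was not analysed here.

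The catalytic subunits did not pass the test. *EZH2* (chromosome 7, 148807257 to 148884321), the methyltransferase that prevails in dividing cells, had 2122, 2055 and 2055 normalized counts in control cells, against 2080, 1690 and 1660 in clones 1 to 3. Clone 1 lay within the control range and clones 2 and 3 lay below it. The means were 2077 ± 38.7 and 1810 ± 234 (SD, n = 3 each), which differed on the log2 scale by −0.21 (95% interval −0.42 to 0.011, limma adjusted p = 0.188). Without clone 1 the log2 fold change was −0.31 with a limma adjusted p of 0.0112, so the call for *EZH2* turned on this clone. This was not particular to *EZH2*, since over all tested genes the lower calls then went from 600 to 1121. A list of 20 proliferation genes, with which *EZH2* is often co-expressed, followed a like order among the clones. Its median log2 difference from control was 0.13 in clone 1, −0.079 in clone 2 and −0.24 in clone 3, where *EZH2* itself had 0.0025, −0.30 and −0.32. Whether proliferation had a part in the level of *EZH2* was not tested. By limma 1 of the 20 was lower at an adjusted p below 0.05, namely *E2F3*, an activator of S-phase genes, at 76.3% of its control mean (log2 fold change −0.39, adjusted p = 0.00523). This was 5% of the list, against 4.70% of all tested genes. None was higher (0 genes, also at an unadjusted p below 0.05, by edgeR and by DESeq2). In the lower direction these gave 3 genes by limma at an unadjusted p below 0.05, 1 by edgeR and 2 by DESeq2. Of all tested genes, 13.5% were lower by limma at an unadjusted p below 0.05.

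*EZH1* (chromosome 17, 42700275 to 42745049), the less active methyltransferase found also in resting cells, had 1311, 1398 and 1345 normalized counts in control cells, against 1300, 1332 and 1312 in the clones. The groups overlapped, and this was the only member with a smaller SD of log2 values among its clones than among its controls. The log2 fold change was −0.039, and the interval of −0.18 to 0.099 bounds a difference in either direction (limma adjusted p = 0.7). After the shift of neighbouring genes was removed its sign turned, to 0.042 (adjusted p = 0.67).

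Of the core subunits, *EED* fell, *RBBP7* rose and *SUZ12* did not pass the test. *EED* (chromosome 11, 86201212 to 86278813), whose protein reads the methyl mark and stimulates the enzyme, had 2410, 2458 and 2533 normalized counts in control cells, against 2146, 2041 and 1971 in the clones. Each clone lay below each control. Its mean went from 2467 ± 61.8 to 2052 ± 88.1 (SD, n = 3 each), by −0.27 ± 0.057 on the log2 scale (SE, limma adjusted p = 0.0256). When any control replicate was left out, the log2 fold change of *EED* stayed between −0.28 and −0.25 but the adjusted p was above 0.05 (up to 0.131), as it was after the neighbouring genes' shift was removed (log2 fold change −0.19, adjusted p = 0.0781), since the neighbours of *EED* had medians of −0.095, −0.11 and −0.029 in the clones. *SUZ12* (chromosome 17, 31937007 to 32001038), which scaffolds the complex, had 6493, 6329 and 6602 normalized counts in control cells, against 5903, 6049 and 5669 in the clones. The groups did not overlap, yet the log2 fold change of −0.14 (95% interval −0.26 to −0.024) had an adjusted p of 0.11 by limma. *SUZ12*, *EED* and *EZH2* each have 1 annotated pseudogene, and reads shared with such copies make their counts uncertain. The exons of *EED* also share 221 bases (3.16%) with an opposite-strand gene, ENSG00000288809, and 66 bases with *MIR6755* on its own strand.

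*RBBP7* (chromosome X, 16839283 to 16870362), which encodes a histone-binding WD-repeat protein shared with other chromatin complexes, had 12327, 12374 and 12675 normalized counts in control cells, against 18103, 15976 and 16065 in the clones. Every clone was above every control, and clone 1 was highest. The mean went from 12459 ± 188 to 16715 ± 1203 (SD, n = 3 each), by 0.42 ± 0.063 on the log2 scale (SE, 95% interval 0.27 to 0.57, limma adjusted p = 0.00681). The rise was of a size that 17.2% of all tested genes exceeded in absolute log2 fold change. The call held in 5 of the 6 fits that left out a library and was lost without control replicate 1 (adjusted p = 0.05004). Its exons share 179 bases (2.44%) with *TXLNG* on the opposite strand (log2 fold change 0.042, limma adjusted p = 0.653), and the strand setting of the counting is not given in the sources used here.

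Most of the tested genes near *RBBP7* were above their control level. Among the 40 tested genes around *RBBP7*, with equal numbers on each side, 35 had a log2 fold change above 0. Of the 40, 17 were higher at an adjusted p below 0.05 and 2 were lower. Their median difference from control was 0.40 in clone 1, 0.18 in clone 2 and 0.36 in clone 3, beside 0.54, 0.36 and 0.37 for *RBBP7*, which ranked 16 among these 41 genes. With this shift taken off each library, the log2 fold change of *RBBP7* was 0.11 (95% interval −0.020 to 0.23, limma adjusted p = 0.224), and the call was lost. The raised stretch was wide. Of the 164 other tested genes from the start of the chromosome to 40 Mb beyond *RBBP7*, a limit chosen after the values were seen, 150 were above 0 and 98 (59.8%) were higher at an adjusted p below 0.05, with medians of 0.40, 0.36 and 0.40 in clones 1 to 3. Of the next 149 genes, up to 110 Mb beyond *RBBP7*, 44 were above 0, 4 were higher and 11 lower, with medians of −0.082, −0.13 and −0.088 in the clones. The last 101 genes, of which 5 were higher and 1 lower, had a median of 0.93 in clone 1 and of −0.033 and −0.053 in the others. These limits too were chosen after the values were seen. *RBBP7* is the only member on X. For the other 9 members, the medians of the 40 neighbours lay between −0.12 and 0.012. Whether the level of *RBBP7* followed from the region was not tested.

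**Figure D3:**
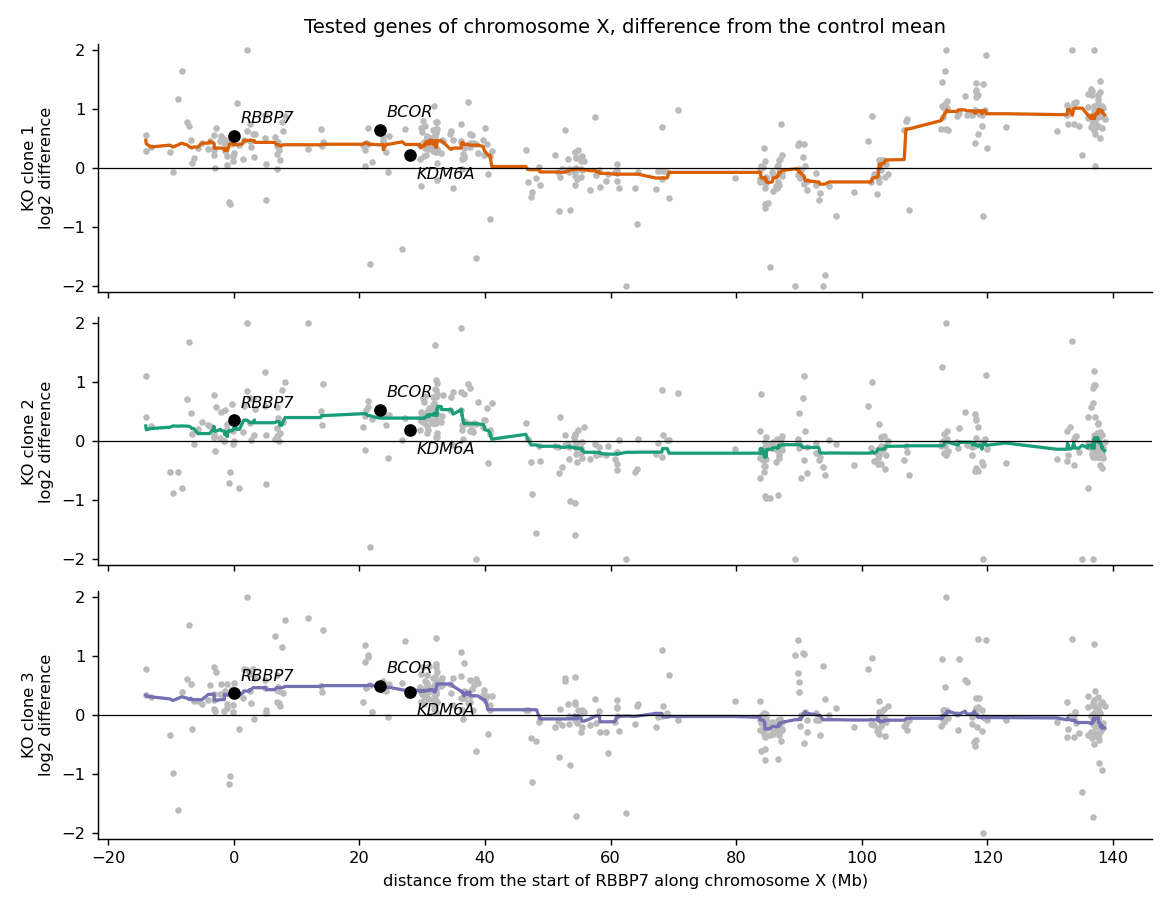
Log2 difference of each tested gene of chromosome X from the control mean (vertical axis) in *SAMD1* KO clones 1 to 3, against its distance from *RBBP7* in Mb, with a running median over 21 genes as a line. Values beyond 2 are drawn at 2, and *RBBP7*, *BCOR* and *KDM6A* are marked; the line lies above 0 in all 3 clones until about 40 Mb beyond *RBBP7*.

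Of the subunits that form the complex with JARID2, *AEBP2* fell. *AEBP2* (chromosome 12, 19404045 to 19720801), a zinc-finger protein that binds nucleosomes, had 2586, 2503 and 2645 normalized counts in control cells, against 2151, 2248 and 2120 in the clones. The clones lay close together, below all controls. The mean went from 2578 ± 71.4 to 2173 ± 66.8 (SD, n = 3 each), by −0.25 ± 0.054 on the log2 scale (SE, limma adjusted p = 0.0276). Its neighbours had medians of 0.017, −0.019 and 0.041 in the clones, and with this shift removed the log2 fold change was −0.26 (adjusted p = 0.0168), the only one of the 4 calls kept under this setting. When any control replicate was left out, the log2 fold change lay between −0.27 and −0.23 with an adjusted p above 0.05 (up to 0.141). *JARID2* (chromosome 6, 15246069 to 15522042), a Jumonji-family protein without demethylase activity that helps recruit PRC2, had 1225, 1188 and 1236 normalized counts in control cells, against 845.4, 1144 and 1137 in the clones. All clones were below the controls, clone 1 by −0.52 on the log2 scale and the others by −0.088 and −0.097. With this spread the log2 fold change of −0.24 had a wide 95% interval of −0.52 to 0.048 (limma adjusted p = 0.242), and without clone 1 it was −0.093.

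Among the Polycomb-like genes, *PHF1* fell and the others did not pass. *PHF1* (chromosome 6, 33410399 to 33416453) had 963.1, 974.5 and 981.7 normalized counts in control cells, against 835.6, 819.9 and 801.4 in the clones. It had the smallest spread of log2 values among controls of the 10 members, and every clone lay below every control. The mean went from 973.1 ± 9.35 to 819 ± 17.1 (SD, n = 3 each), by −0.25 ± 0.063 on the log2 scale (SE, limma adjusted p = 0.0427). This call was close to the threshold. It was lost in 5 of the 6 fits that left out a library, all but that without clone 1 (adjusted p up to 0.18), while the log2 fold change stayed between −0.26 and −0.23, and after the neighbours' shift was removed (adjusted p = 0.084). *MTF2* (chromosome 1, 93079235 to 93139079) had 1457, 1428 and 1526 normalized counts in control cells, against 1210, 1375 and 1178 in the clones. Its clones were below the controls, with clone 2 nearest to them, and the log2 fold change was −0.23 (95% interval −0.41 to −0.051, limma adjusted p = 0.0942). Without clone 2 it was −0.30 with an adjusted p of 0.0276. *PHF19* (chromosome 9, 120855651 to 120894896) had 7523, 7755 and 7431 normalized counts in control cells, against 8373, 7534 and 6236 in the clones. Clone 1 lay above the controls, clone 2 among them and clone 3 below, so that the log2 fold change of −0.047 had an interval of −0.29 to 0.19 (limma adjusted p = 0.8). Without clone 3 the sign turned, to 0.070.

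*RBBP7* was the member farthest from control in each of the 3 clones, and the clones differed in the others. Clone 1 had the lowest *JARID2*, the highest *PHF19* and *RBBP7* and an *EZH2* within the control range, whereas clone 3 had the lowest *EZH2*, *EED*, *SUZ12*, *AEBP2*, *PHF1*, *MTF2* and *PHF19*. Of the 9 members other than *RBBP7*, 7 were below the lowest control in clone 1, 7 in clone 2 and 8 in clone 3, against between 39.8% and 41.3% of all tested genes, depending on the clone. Their median log2 difference from control was −0.20, −0.098 and −0.28. Over all tested genes these medians were −0.0033, 0.00099 and −0.0036. The SD of log2 values among the clones was larger than that among the controls in 9 of 10 members, and in 82.8% of all tested genes. For the members its median was 0.082 among the clones and 0.031 among the controls, and for all tested genes 0.15 and 0.059.

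**Figure D4:**
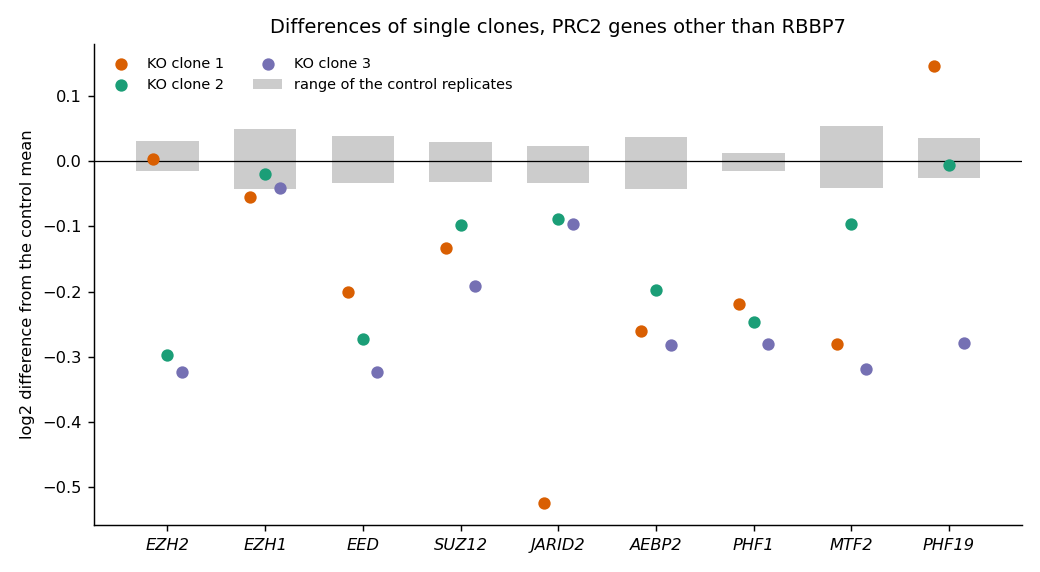
Log2 difference from the control mean (vertical axis) of 9 PRC2 genes in each *SAMD1* KO clone, with the range of the control replicates as a grey box. *JARID2* stands at −0.52 in clone 1, *EZH2* at 0.0025 in clone 1 but at −0.30 and −0.32 in the others, and *PHF19* at 0.15, −0.0065 and −0.28.

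Levels of the members were compared per kilobase of the union of their annotated exons. In control cells *RBBP7* was highest with 1697 ± 25.7 normalized counts per kb, followed by *PHF19* (1148 ± 25.3) and *SUZ12* (988.4 ± 20.98, SD, n = 3 each). Next came *AEBP2* (380.9) and *EED* (352.7), then *PHF1* (270.6) and *MTF2* (248.9). *JARID2*, *EZH1* and *EZH2* had 194.8, 193.4 and 192.8, and these last 3 did not differ beyond their spread. The order of the first 3 was the same per kilobase of the canonical transcript, a length chosen after the values were seen. *EZH2* then stood at 782.7 and *EZH1* at 291.7, and *EED* at 1181, so the standing of *EZH2* and *EED* depended on the length used. *PHF19* was the most abundant Polycomb-like gene on either scale.

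Ratios within each library do not depend on library size, and 6 were compared by a two-sided exact permutation test, whose smallest possible p is 0.1. The ratio of *RBBP7* to *RBBP4* per kb was 5.54, 5.57 and 5.27 in control cells, against 7.40, 7.67 and 6.99 in the clones. It was higher in every clone, by 0.43 on the log2 scale (exact p = 0.1, adjusted p = 0.6). *RBBP4*, which fills the same place in the complex, moved by −0.0065 ± 0.074 on the log2 scale (SE, limma adjusted p = 0.963), and 7 annotated pseudogenes make its count uncertain. The ratio of *EZH1* to *EZH2* was 0.953, 1.05 and 1.01 in control cells and 0.964, 1.22 and 1.22 in the clones (log2 difference 0.17, exact p = 0.3). The summed Polycomb-like genes stood to the sum of *JARID2* and *AEBP2* as 2.86, 3.02 and 2.82 in control cells and as 3.77, 3.11 and 2.76 in the clones (log2 difference 0.14, exact p = 0.5). In both of these the groups overlapped, and without clone 1 the latter difference was 0.017. The remaining ratios, *PHF19* to *MTF2*, *PHF1* to *MTF2* and *JARID2* to *AEBP2*, also overlapped, with log2 differences of 0.19, −0.017 and 0.010 (exact p = 0.2, 0.9 and 1). Without clone 1 the difference of *PHF19* to *MTF2* was 0.065. The differences hardly depend on the length used, but the levels do. With canonical transcripts the control means gave 14.6 for *RBBP7* to *RBBP4* and 0.373 for *EZH1* to *EZH2*, in place of 5.46 and 1.00.

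The other genes around PRC2 were taken from fixed lists of 148 genes, of which 112 were tested. By limma 10 (8.93%) were higher and 4 (3.57%) were lower at an adjusted p below 0.05, near the 8.32% and 4.70% of all tested genes. Of the other subunits and inhibitors of PRC2, *LCOR* and *LCORL* were tested besides *RBBP4* and did not pass (log2 fold changes of 0.0030 and −0.027), and *EPOP* and *EZHIP* were listed at 0 in every library. Counts were per gene, so separate transcript forms of *LCOR* and *LCORL* could not be told apart. Of the demethylases that remove the PRC2 mark, *KDM6A* rose, with 1908 ± 35.0 normalized counts in control cells and 2296 ± 184 in the clones (SD, n = 3 each), a log2 difference of 0.26 (limma adjusted p = 0.049, with the call lost in 3 of the 6 fits without 1 library), and *KDM6B* had a log2 fold change of 0.082 (adjusted p = 0.726). *KDM6A* also lies in the raised stretch of X, and with its neighbours' shift removed its log2 fold change was −0.15 (adjusted p = 0.141).

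The partner complex PRC1, which ubiquitinates histone H2A, had 1 called gene in its lists. Of its 14 core and canonical genes 0 passed in limma, against 8.32% of all tested genes higher and 4.70% lower. At an unadjusted p below 0.05, 4 were higher and 0 lower, against 16.1% and 13.5% of all tested genes. edgeR and DESeq2 each called 1 higher. The median log2 fold change of the 14 was 0.10, with 9 above 0. Of 14 tested genes of variant PRC1, 1 was higher, *BCOR*, with 1993 ± 24.3 normalized counts in control cells and 2939 ± 156 in the clones (SD, n = 3 each), a log2 difference of 0.56 (limma adjusted p = 0.00189). *BCOR* is again a gene of the raised stretch of X, and its log2 fold change was 0.16 (adjusted p = 0.116) with the neighbours' shift removed. None of the 5 tested genes of the H2A deubiquitinase passed in limma (0 genes, median log2 fold change 0.040). None of the 9 H3K36 and H3K4 methyltransferases, which work against Polycomb silencing, passed either (0 genes, median −0.040). Nor did any gene of these lists (0 genes) at an unadjusted p below 0.05, by edgeR or by DESeq2. Of the 13 SWI/SNF genes, whose remodelling complex opposes Polycomb, *SMARCD3* rose to 193% of its control mean and *ARID1A* fell to 86.8% (limma adjusted p = 0.0165 and 0.0412). In each direction this was 7.69% of the list, against 8.32% of all tested genes higher and 4.70% lower. Each call held in 3 of the 6 fits that left out a library. With the neighbours' shift removed, *SMARCD3* kept its call (limma adjusted p = 0.00477) and *ARID1A* lost it (adjusted p = 0.0641).

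The list of developmental regulators that are textbook Polycomb targets, without the HOX clusters, had 64 genes, of which 32 were tested. Of these 7 (21.9%) were higher and 2 (6.25%) were lower by limma, against 8.32% and 4.70% of all tested genes. By edgeR 6 were higher and 2 lower, beside 1109 and 581 of all 12773 tested genes. By DESeq2 9 were higher and 2 lower, beside 1393 and 904. Of the 32, 26 were above 0, with a median log2 fold change of 0.24 beside −0.0059 for all tested genes. The median difference of the list from control was 0.083 in clone 1, 0.33 in clone 2 and 0.25 in clone 3. The minimum for testing was a mean over both groups, so a gene low in control cells could enter through its KO values. The genes that rose were *GATA6*, a transcription factor of the endoderm (424% of its control mean, limma adjusted p = 0.00467), *FOXF1* (180%, adjusted p = 0.00596), *SIX2*, *SIX3*, *PAX2*, *FOXC1* and *MSX2*. *MSX1* fell to 61.2% (adjusted p = 0.0113) and *FOXD1* to 55.9% (adjusted p = 0.0235). Many of these genes had few reads, such as *GATA6* with 36.6, 44.03 and 46.96 normalized counts in control cells, against 149.3, 259.2 and 132.2 in the clones. Whether the lower level of some PRC2 genes had a part in this was not tested, and the histone mark was not analysed here.

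**Figure D5:**
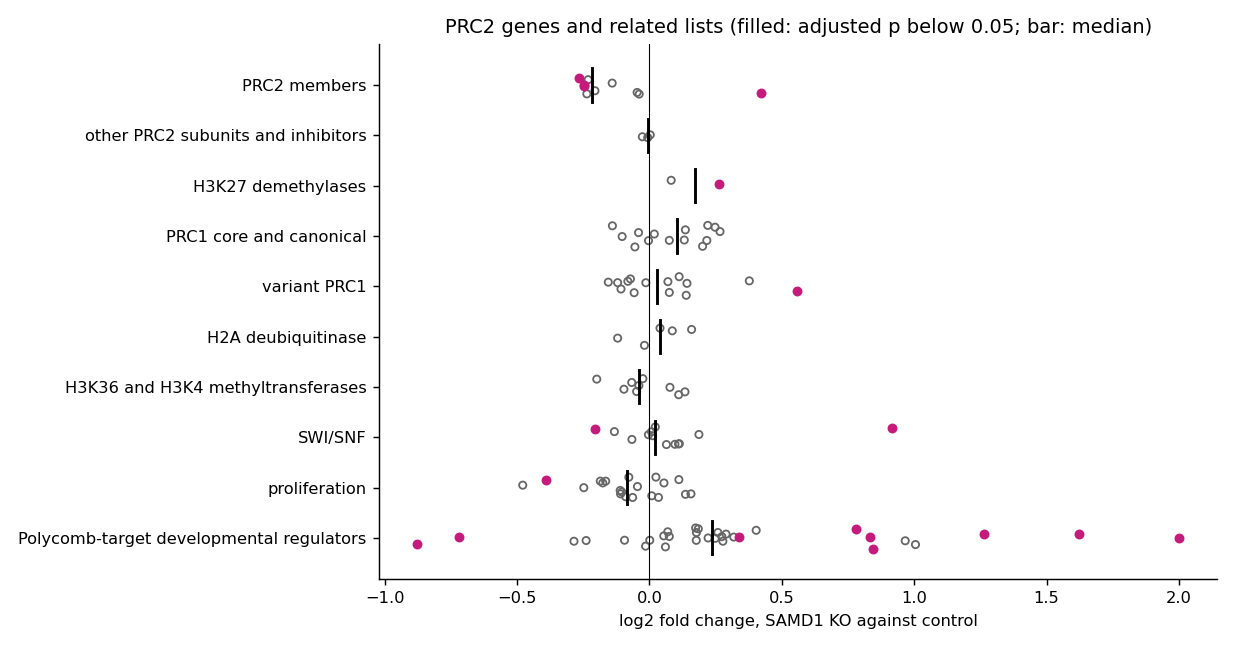
Log2 fold change of each tested gene (horizontal axis) in the PRC2 members and in the lists of related genes, with filled points for an adjusted p below 0.05 in limma and a bar for the median. The PRC2 members have the lowest median of the lists, −0.22, and the developmental regulators the highest, 0.24.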

How the data were processed

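Total RNA of PaTu8988t cells was sequenced from stranded mRNA libraries. According to the methods of the study and the submitters' processing notes, the authors aligned the reads with RNA-STAR to the GenCode transcriptome (hg38), counted them per gene (featureCounts) and divided the counts by 1 DESeq2 size factor per library. The deposited signal is this normalized count, and 100% of the values in each library were whole multiples (within 0.01) of 1 step, from which whole reads were recovered. No sample column was unused (0 columns). The authors also deposited their own DESeq2 comparison (fold changes, errors and p-values), which was not used.

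The groups were compared with limma 3.58.1 (lmFit and eBayes with trend, R 4.3.3) on log2(normalized count + 1), so that fold changes are on that scale, for the 12773 genes whose mean reached 10 normalized counts, with two-sided tests and Benjamini-Hochberg adjustment over all of them. Replicate numbers were not used as pairs. Positions and exon lengths came from GENCODE 44 on GRCh38, which matched 99.4% of the tested genes. The neighbouring genes were 40 tested genes in chromosome order, with equal numbers before and after the gene except near chromosome ends. Members and lists were chosen with earlier results of these data known. All 10 members were named, as were *SAMD1*, the other PRC2 subunits and inhibitors and the H3K27 demethylases. Of the other lists of related genes, every gene with an adjusted p below 0.05 was named. A limit of 12 such genes, those with the smallest p, had been planned and was not kept. *TXLNG* was chosen after its values were seen.

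Other settings tried were pseudocounts of 0.1 and 10, a filter at 50 and none, scaling to the 75th percentile, a replicate block, the removal of 1 library or of the neighbours' shift, and the quasi-likelihood test of edgeR 4.0.16 or DESeq2 1.42.0 with the recovered reads as input. The fits were tested on simulated data. Other steps used Python 3.11.15 with pandas 2.3.3, numpy 2.4.6 and SciPy 1.17.1.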

Additional observations from a re-analysis of the deposited data

How the results depend on the processing

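When 1 library at a time was dropped, the number of PRC2 genes higher at an adjusted p below 0.05 was between 0 and 1 and the number lower between 0 and 4, with 0 lower whenever a control replicate was left out. Over all tested genes the lower calls then went from 600 to between 131 and 141 and the higher calls from 1063 to between 378 and 426. With a clone left out, the lower calls were between 635 and 1121 and the higher calls between 991 and 1448. The number of related genes higher lay between 3 and 14 and lower between 1 and 7 (5 to 9 and 2 to 3 at the cut-off of the study). After the neighbours' shift was removed, 0 PRC2 genes were higher and 1 was lower, while 1210 of 12677 genes were higher and 882 lower. Without overlap of the groups, 0 members were then higher and 5 lower. *EZH1* had a log2 fold change of 0.042 instead of −0.039 under this setting. Replicate numbers were not taken as pairs, since the labels tie them to nothing shared and the correlations of deviations between same-numbered libraries ran from 0.032 to 0.13, not all above 0.1. As a hint the other way, 5 of 6 libraries correlated best with their own number. With the replicate block, 1 PRC2 gene was higher and 0 were lower, and 5 related genes were higher. Over all tested genes the block gave 825 higher and 392 lower. Without a filter on low values, 4 related genes were lower at the cut-off of the study. *PHF19* ran from −0.14 to 0.070 with a library left out. The log2 difference of the ratio of *PHF1* to *MTF2* then ran from −0.056 to 0.0495 and that of *JARID2* to *AEBP2* from −0.077 to 0.15. edgeR and DESeq2 each gave 1 higher and 3 lower PRC2 genes. Over all tested genes edgeR gave 1109 higher and 581 lower, and DESeq2 1393 and 904. The other scalings, filters and pseudocounts changed the call of *PHF1* only (limma adjusted p = 0.0551 after rescaling and 0.0552 without a filter).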
